A study of Mus musculus with 8 samples.

Results

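The genes of the MHC class II pathway described here are *H2-Aa*, *H2-Ab1*, *H2-Eb1*, *H2-DMa*, *H2-DMb1*, *Cd74* and *Ciita*, 7 genes chosen by name out of 55335 genes in the deposited count table. All 7 passed the filter on low counts, which left 15378 genes for testing, and the lowest count of any of them in any sample was 26. The RNA came from tumor-infiltrating CD8+ T cells (TILs) that were sorted as live CD45.2+ TCRβ+ CD44+ PD-1+ cells from subcutaneous MC38 tumors, a mouse colon carcinoma line. The comparison was between 4 wildtype samples (WT, Lsd1f/f) and 4 samples lacking LSD1 in T cells (KO, Cd4-Cre+Lsd1f/f), all on the C57BL/6 strain and from mice 6 to 10 weeks old. Both groups carry the floxed Lsd1 alleles, and only the KO mice carry Cre, which the Cd4 promoter turns on in developing T cells, those that later become CD8+ included. A WT sample pooled the cells of 2 mice and a KO sample held those of 1 mouse, and 10000 to 20000 cells were lysed for each. The protocol gives day 18 after tumor implantation and the series' design text gives 14 days. The WT columns of the table are named S1 to S4 below, and the KO columns S5 to S8.

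MHC class II molecules are pairs of an alpha and a beta chain that display peptides from endosomes to CD4+ T cells. They are made by dendritic cells, B cells and activated macrophages. The invariant chain, encoded by *Cd74*, fills the peptide groove of new class II molecules until the exchange factor H2-DM, a pair of the *H2-DMa* and *H2-DMb1* products, helps to load a peptide. CIITA, the product of *Ciita*, binds no DNA itself but joins the RFX, CREB and NF-Y factors on the X and Y boxes of class II promoters and switches the genes on, for which interferon gamma is the best known inducer. Activated human T cells make class II molecules, while mouse T cells generally keep *Ciita* off. LSD1, encoded by *Kdm1a*, is a histone demethylase.

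Total counts per sample lay between 11657807 and 30295406, so that 3 counts correspond to 0.106 to 0.250 CPM (a gene's counts relative to its library's total, scaled with edgeR's TMM factors), a floor for counting error alone. *Kdm1a*, the gene deleted in KO T cells, was at 44.9 ± 1.87 CPM in WT and at 30.6 ± 4.03 CPM in KO (mean ± SD, n = 4 each), lower in each KO sample than in any WT sample, at an adjusted p of 0.0163 (edgeR's quasi-likelihood test with Benjamini-Hochberg adjustment). These counts cover the whole gene, exons outside the deleted part included. The defining markers of the sorted cells were abundant in both groups, with *Cd8a* at 1340 ± 93.3 CPM in WT and 1109 ± 107 CPM in KO, and *Cd3e*, a T cell receptor subunit, at 393 ± 30.2 and 328 ± 29.1 CPM. Markers of macrophages, which the gate should remove, were also present and differed between the groups, as described beside the class II genes below.

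The promoters of *H2-Aa* and *H2-Eb1* are shown because the boxes that CIITA works through can be read in them. A window of *H2-DMa* in which the pair was not found is shown beside them. Whether the boxes bear on which genes were called was not tested. The sequences are from RefSeq on GRCm38.p6 and show the 120 bases before the transcription start, on the strand of the gene. Capitals mark the core of the X1 box (GNAAC) and the core of the Y box (TGATTGG) where an X1 core is followed by a Y core within 50 bases on the same strand, and windows were searched on both strands.
H2-Aa: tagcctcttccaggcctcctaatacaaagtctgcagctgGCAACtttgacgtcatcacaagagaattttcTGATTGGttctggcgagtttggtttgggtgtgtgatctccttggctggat
H2-Eb1: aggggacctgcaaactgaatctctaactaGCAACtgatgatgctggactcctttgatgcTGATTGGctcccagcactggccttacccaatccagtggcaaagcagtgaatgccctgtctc
H2-DMa: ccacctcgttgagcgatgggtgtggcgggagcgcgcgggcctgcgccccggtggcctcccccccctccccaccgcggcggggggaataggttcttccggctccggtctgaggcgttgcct
The H2-Aa window lies at chr17:34287824-34287943 on the minus strand, with the X1 core 81 bases and the Y core 50 bases before the start. The H2-Eb1 window lies at chr17:34305747-34305866 on the plus strand, with the cores 91 and 61 bases before the start, a spacing of 30 bases against 31 in *H2-Aa*. In *H2-DMb1* the same pair stood 94 and 63 bases before the RefSeq start, and *H2-Oa* and *H2-Ob* held it at spacings of 31 and 28 bases. The H2-DMa window at chr17:34122712-34122831 on the plus strand held no Y core, nor did the 250 bases before its other RefSeq start, of which the last 120 are at chr17:34125398-34125517. Both windows lie inside the interval of the gene given below, chr17:34119541-34139101. The bases before any other start of *H2-DMa* were not searched, so these windows do not show that the gene lacks the boxes. Of 32544 promoter windows of 250 bases before the start in the same table, 7.21% held the Y core, 79.5% held the short X1 core and 1.03% held the pair. A match of these letters is a description and not a measured site. *H2-Ab1* and *Ciita* were not in this table, and the *Cd74* promoter is not shown here.

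KO samples had less RNA of 5 of the 7 genes than WT samples, *H2-Aa*, *H2-Ab1*, *H2-Eb1*, *H2-DMb1* and *Ciita*, at fold changes between 3.80 and 5.94. Which cells in the samples this RNA came from was not tested. A call required more than a 1.5-fold change with an adjusted p below 0.01, and 1.99% of all 15378 genes were called lower by this rule. None of the 7 genes was called higher by edgeR, nor by DESeq2 or at an unadjusted p under 0.05 (0 genes each), against 2.91% of all genes called higher. For the same 5 genes all KO samples lay under all WT samples, which held for 8.28% of all genes. Each had p = 0.0286 in an exact two-sided permutation test, the smallest that 4 against 4 samples allow. Such full separation always gives this p, so it adds nothing to the separation itself. *Cd74* and *H2-DMa* overlapped between the groups and were not called. The median log2 fold change (KO minus WT) over the 7 genes was -2.11, and over all genes tested it was -0.014. In such bulk RNA, fewer cells of a type and less RNA per cell cannot be told apart.

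**Figure D1:**
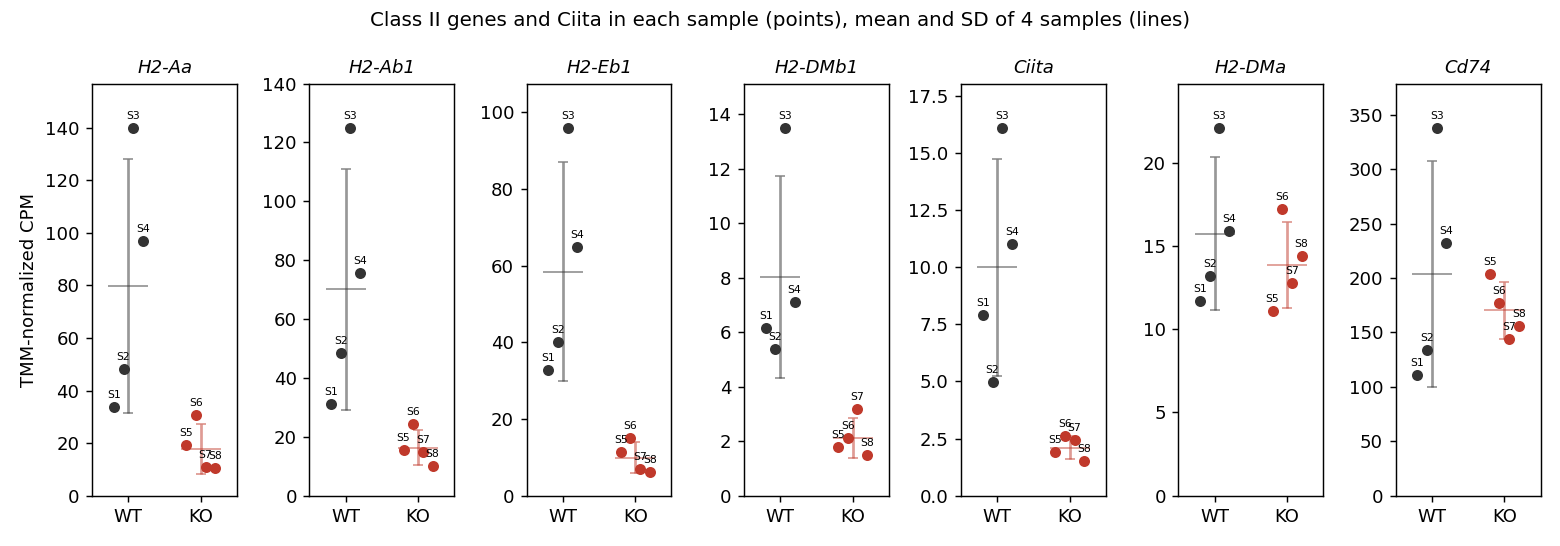
TMM-normalized CPM of each of the 7 genes (vertical axes, each with its own scale from 0) in the 4 WT and 4 KO samples (points), with lines for the mean and SD of 4 samples. KO points lie below all WT points for *H2-Aa*, *H2-Ab1*, *H2-Eb1*, *H2-DMb1* and *Ciita* and mix with them for *H2-DMa* and *Cd74*, and S3 is the highest WT sample in every panel.

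*H2-Aa* (chr17:34282744-34287823, minus strand) encodes the alpha chain of I-A, the class II molecule of this strain. Its level was 33.8, 48.3, 140 and 96.9 CPM in the WT samples S1 to S4, while the KO samples S5 to S8 had 19.1, 30.6, 10.8 and 10.7 CPM. The highest KO sample, S6, came close to the lowest WT sample, S1, without reaching it. The means were 79.7 ± 48.2 CPM for WT and 17.8 ± 9.42 CPM for KO (SD, n = 4), a 4.50-fold fall, at a log2 fold change of -2.17 ± 0.39 (SE) and an adjusted p of 0.00135 in edgeR's quasi-likelihood test.

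Its partner, the I-A beta chain gene *H2-Ab1* (chr17:34257689-34269419, plus strand), was at 31.2, 48.6, 125 and 75.6 CPM in the WT samples S1 to S4 and at 15.6, 24.5, 14.9 and 10.2 CPM in the KO samples S5 to S8. The 8 samples stood in the same order as for *H2-Aa*, with S3 highest, S1 lowest of the WT samples and S6 highest of the KO samples. The mean fell 4.33-fold, from 70.1 ± 41.0 to 16.3 ± 5.97 CPM, at a log2 fold change of -2.11 ± 0.34 and an adjusted p of 0.000545 in the same test. The ratio of *H2-Aa* to *H2-Ab1* counts within a sample stayed between 0.723 and 1.28 in all 8 samples. In this and all later ratios between 2 genes, a prior count of 2, scaled to the library, was added to each gene's counts. Its log2 differed between the groups by -0.10, which was less than the spread between samples, at p = 0.743 in an exact two-sided permutation test.

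*H2-Eb1* (chr17:34305867-34316674, plus strand) encodes the beta chain of I-E. C57BL/6 mice make no I-E because their alpha chain gene *H2-Ea* is defective, and *H2-Ea* had 0 counts in all 8 samples, which allows up to 0.106 to 0.250 CPM in a sample. *H2-Eb1* was at 32.9, 40.1, 96.0 and 64.9 CPM in the WT samples S1 to S4 and at 11.4, 15.1, 6.93 and 6.26 CPM in the KO samples S5 to S8. It had the largest fold change of the 7 genes, 5.94-fold, from 58.5 ± 28.5 CPM in WT to 9.91 ± 4.14 CPM in KO, and the log2 fold change was -2.57 ± 0.32 at an adjusted p of 5.25e-05 in edgeR's quasi-likelihood test. It was lower in KO also relative to *H2-Ab1*, at 0.768 to 1.06 *H2-Eb1* counts per *H2-Ab1* count in WT and 0.468 to 0.732 in KO. This difference of -0.53 in log2 ratio had p = 0.0286, the smallest possible in the exact permutation test over 70 arrangements of the samples, and 0.0429 after Benjamini-Hochberg adjustment over the 9 ratios compared.

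*H2-DMb1* (chr17:34153072-34160230, plus strand), the beta chain of the peptide exchange factor, was at 6.16, 5.39, 13.5 and 7.09 CPM in the WT samples S1 to S4 and at 1.77, 2.10, 3.17 and 1.48 CPM in the KO samples S5 to S8. Its mean fell 3.80-fold, from 8.05 ± 3.73 to 2.13 ± 0.739 CPM, at a log2 fold change of -1.93 ± 0.41 and an adjusted p of 0.00511 in edgeR's quasi-likelihood test. The call was the least firm of the 5, since the adjusted p rose to 0.0357 without S3, at a log2 fold change of -1.55, and to between 0.0127 and 0.0168 without S4, S5, S6 or S8. Of its stretches of 42 bases, a read length given in the methods, 25.9% are also in *H2-DMb2*, a neighboring copy, so reads could have been divided between them. *H2-DMb2* had 139 counts in all while *H2-DMb1* had 590, and was at 1.09 ± 0.932 CPM in WT and 1.18 ± 0.495 CPM in KO.

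*H2-DMa* (chr17:34119541-34139101, plus strand), which encodes the alpha chain of the same exchange factor, was not called. It was at 11.7, 13.2, 22.1 and 15.9 CPM in the WT samples S1 to S4 and at 11.1, 17.2, 12.8 and 14.4 CPM in the KO samples S5 to S8, and the groups overlapped. The log2 fold change was -0.18, with a 95% interval from -0.63 to 0.27 and an adjusted p of 0.704 in the same test. The ratio of *H2-DMa* to *H2-Ab1* was 0.177 to 0.379 in WT and 0.704 to 1.41 in KO, a log2 difference of 1.82 (p = 0.0286 in an exact two-sided permutation test, 0.0429 adjusted over 9 ratios). These counts carry a limit, because 360 of the 3448 exon bases of *H2-DMa* lie on the opposite strand of exons of *Brd2*, which had 55345 counts in all while *H2-DMa* had 1851. The libraries were directional, but whether the counting used strand is not stated, and *Brd2* was at 403 CPM in WT and 445 CPM in KO. Whether *Brd2* reads entered the *H2-DMa* counts was not tested.

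*Cd74* (chr18:60803848-60812652, plus strand), the invariant chain gene, was the most abundant of the 7 genes per length in every sample and was not called. It was at 111, 134, 338 and 232 CPM in the WT samples S1 to S4 and at 204, 177, 144 and 156 CPM in the KO samples S5 to S8, so that all 4 KO samples lay between the lower and the higher pair of WT samples. The means were 204 ± 104 CPM in WT and 170 ± 26 CPM in KO, and the log2 fold change of -0.26 had a 95% interval from -0.74 to 0.23 and an adjusted p of 0.591 in edgeR's quasi-likelihood test. Its sign depended on S3, without which it was 0.10 at an adjusted p of 0.835, and *H2-DMa* likewise moved to 0.03 without S3. The ratio of *Cd74* to *H2-Ab1* separated the groups, with 3.54, 2.76, 2.70 and 3.06 *Cd74* counts per *H2-Ab1* count in the WT samples S1 to S4 and 13, 7.21, 9.59 and 15.2 in the KO samples S5 to S8. On the log2 scale the ratio was 1.85 higher in KO (p = 0.0286 in an exact two-sided permutation test, 0.0429 adjusted over 9 ratios). The lowest KO ratio, in S6, was above the highest WT ratio, in S1.

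*Ciita* (chr16:10480059-10528418, plus strand), the regulator, was the least abundant of the 7 genes per length. The WT samples S1 to S4 held 136, 91, 197 and 133 counts (7.90, 4.96, 16.1 and 11 CPM), and the KO samples S5 to S8 held 29, 32, 29 and 43 counts (1.90, 2.59, 2.42 and 1.51 CPM). The lowest WT sample was S2, still above all KO samples. Its mean fell 4.76-fold, from 9.98 ± 4.75 to 2.11 ± 0.491 CPM, at a log2 fold change of -2.25 ± 0.40 and an adjusted p of 0.00117 in edgeR's quasi-likelihood test. The log2 ratio of *Ciita* to *H2-Ab1* differed by -0.10 between the groups, less than the spread between samples (p = 0.857 in an exact two-sided permutation test). Exons of *Dexi* on the opposite strand cover 329 of the 9535 exon bases of *Ciita*, and *Dexi* was at 7.25 CPM in WT and 7.92 CPM in KO, with a log2 fold change of 0.13 at an adjusted p of 0.862.

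Levels per length (RPKM, which is CPM divided by the exon length in kilobases) placed the 7 genes in an order. The order of the 3 classical chains rests on the merged exon lengths used. These were 1944 bases for *H2-Eb1*, 2568 for *H2-Ab1* and 3798 for *H2-Aa*. By CPM, *H2-Aa* was instead above *H2-Eb1* in each WT sample, at means of 79.7 and 58.5 CPM. In WT, *Cd74* led at 121 ± 61.9 RPKM, before *H2-Eb1* at 30.1 ± 14.7, *H2-Ab1* at 27.3 ± 16 and *H2-Aa* at 21.0 ± 12.7 RPKM, and within each of the 4 samples each of these was above the next. The exchange factor genes followed at 4.79 ± 2.22 RPKM for *H2-DMb1* and 4.56 ± 1.33 RPKM for *H2-DMa*, which could not be ordered since each was the higher in 2 samples, and *Ciita* came last at 1.05 ± 0.498 RPKM. In KO, *Cd74* was at 102 ± 15.5 RPKM and the chains stood nearer to *H2-DMa*, with *H2-Ab1* at 6.34 ± 2.33, *H2-Eb1* at 5.10 ± 2.13, *H2-Aa* at 4.69 ± 2.48 and *H2-DMa* at 4.02 ± 0.755 RPKM. *H2-Aa* was above *H2-DMa* in 2 of 4 KO samples, and *H2-Eb1* was above *H2-Aa* in 3. *H2-DMb1* at 1.27 ± 0.440 and *Ciita* at 0.221 ± 0.0515 RPKM stayed at the end of the order.

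As shares of the summed RPKM of the 7 genes, which do not depend on the scaling of a library, *Cd74* took 57.2% to 59.0% in WT and 76.8% to 86.0% in KO. The WT shares lay close together although all 7 genes had a higher CPM in S3 than in S1. *H2-Eb1* took 14.0% to 15.1% in WT and 2.97% to 5.65% in KO, and *H2-Ab1* took 10.9% to 13.8% and 3.65% to 6.93%. The share of *H2-Aa* was 7.97% to 10.8% in WT and 2.60% to 5.86% in KO. *H2-DMa*, at 1.82% to 3.05% in WT and at 2.25% to 3.84% in KO, was the only gene besides *Cd74* whose highest share was in a KO sample.

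**Figure D2:**
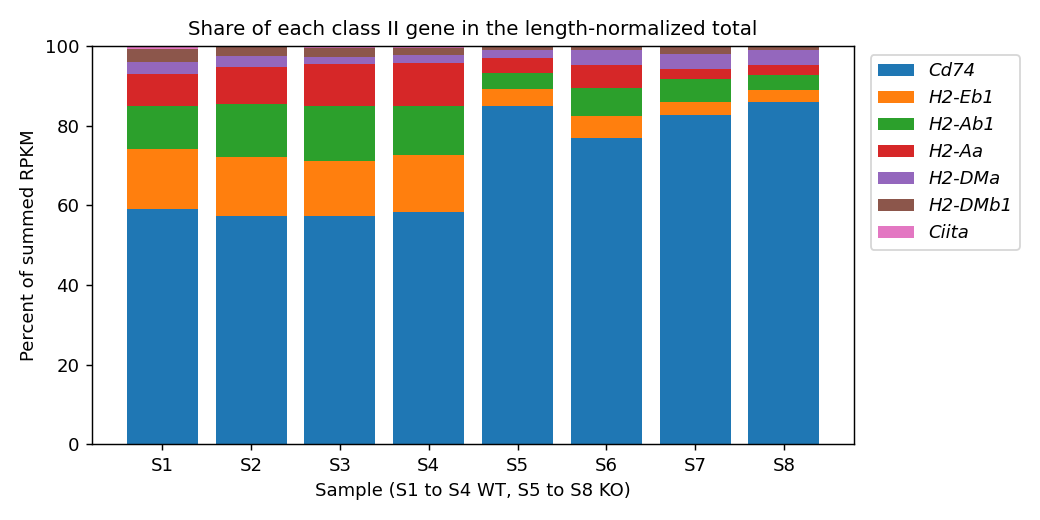
Percent of the summed RPKM (vertical axis, 0 to 100%) that each of the 7 genes took in each sample (bars, the WT samples first and the KO samples after them). *Cd74* fills 57.2% to 59.0% of the WT bars and 76.8% to 86.0% of the KO bars, and the 3 classical chains shrink in every KO bar.

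The class II chains moved together with markers of macrophages, cells that make class II molecules and that the TCRβ+CD8+ gate should remove. Of 16 macrophage markers 15 were tested, 11 were called lower in KO by edgeR (13 by DESeq2) and 13 were lower in each KO sample than in any WT sample, with a median log2 fold change of -2.97. *C1qb*, a complement subunit made by tissue macrophages, was at 58.4 ± 38.4 CPM in WT and 4.88 ± 2.05 CPM in KO (log2 fold change -3.61 ± 0.40, adjusted p = 1.42e-05 in edgeR's quasi-likelihood test), while *C1qa* changed by -3.93 and *Csf1r*, the receptor for macrophage colony-stimulating factor, by -2.97. *Itgam* (log2 fold change -0.01), *Cd68* (-0.41), *Aif1* (-0.97) and *Tyrobp* (-2.65) were not called by edgeR. The summed markers were at 301, 354, 884 and 405 CPM in the WT samples S1 to S4 and at 92.2, 107, 69.0 and 60.7 CPM in the KO samples S5 to S8, and no marker was at 0 in all 4 samples of a group.

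The summed CPM of the 3 classical chains (*H2-Aa*, *H2-Ab1* and *H2-Eb1*) was 97.9, 137, 361 and 237 in the WT samples S1 to S4 and 46.0, 70.2, 32.6 and 27.1 in the KO samples S5 to S8. Within each group, the samples ranked in the same order for the chains as for the macrophage markers. Per CPM of summed macrophage markers the chains took values from 0.325 to 0.587 in WT and from 0.446 to 0.657 in KO, and on this measure the groups overlapped. The sum includes *Cd68* (28.4 CPM in WT, 21.4 CPM in KO) and *Itgam* (8.25 and 8.12 CPM), which fell little. These 2 markers made up more of the KO sums than of the WT sums, so the overlap depends on which markers are summed. Set against *C1qb* alone, *H2-Ab1* was higher in KO, with 0.993, 1.33, 1.09 and 1.48 *H2-Ab1* counts per *C1qb* count in the WT samples S1 to S4 and 2.13, 5.11, 2.76 and 4.33 in the KO samples S5 to S8. This log2 difference of 1.48 had p = 0.0286 in an exact two-sided permutation test and 0.0429 adjusted over 9 ratios.

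*Cd74* did not follow the macrophage markers across the groups. It stood at 2.95 to 4.54 counts per *C1qb* count in WT and at 26.4 to 65.9 in KO, a log2 difference of 3.33 (p = 0.0286 in an exact two-sided permutation test, 0.0429 adjusted over 9 ratios). *Ciita* stood at 0.139 to 0.255 counts per *C1qb* count in WT and at 0.276 to 0.689 in KO, a log2 difference of 1.38 with the same p and adjusted p in that permutation test. A fit with the mean log2 CPM of the 15 tested macrophage markers as a term beside the group left none of the 7 genes called. The fitted group difference was 1.09 ± 0.62 (SE) for *H2-Aa*, 0.78 ± 0.53 for *H2-Ab1* and 0.10 ± 0.49 for *H2-Eb1*. Their adjusted p was 0.605, 0.683 and 0.973 in edgeR's quasi-likelihood test. This score lay between 3.77 and 5.27 in WT and between 1.15 and 2.13 in KO, so that the score and the genotype cannot be told apart in these samples.

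**Figure D3:**
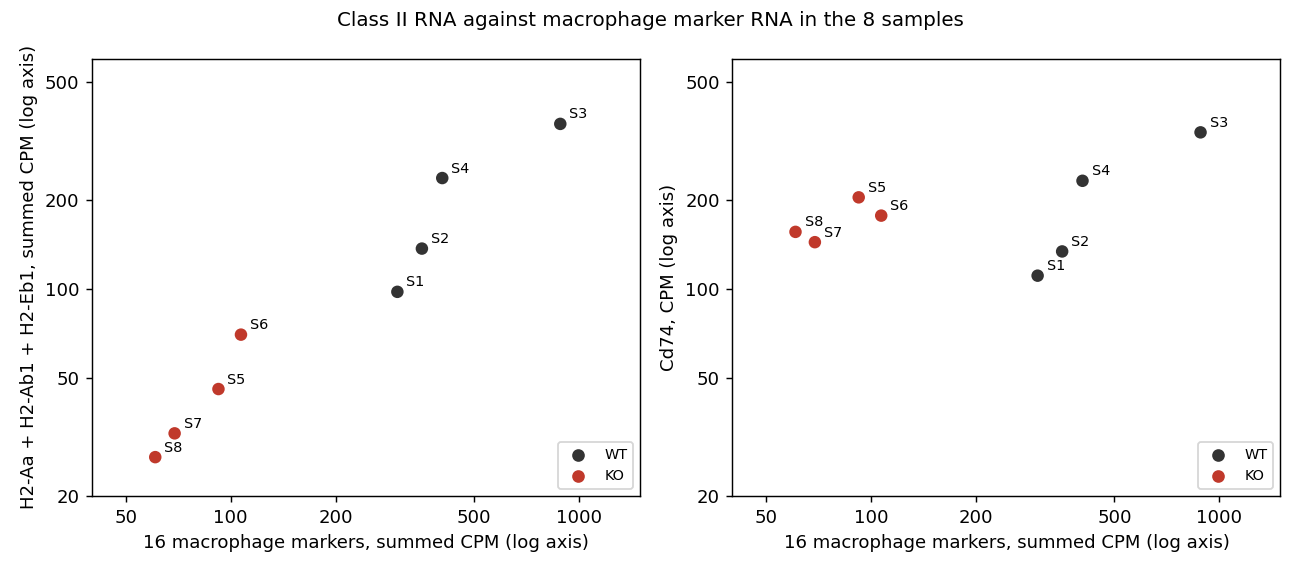
Summed CPM of the 3 classical chains (left) and CPM of *Cd74* (right) against the summed CPM of 16 macrophage markers, all on log axes, 1 point per sample. The chains range from 27.1 to 70.2 CPM in KO and from 97.9 to 361 CPM in WT and rise with the markers in both groups, and *Cd74* rises with the markers over the WT samples, from 111 to 338 CPM, but lies between 144 and 204 CPM in KO at 60.7 to 107 CPM of markers.

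Of 12 dendritic cell markers 5 were tested, and edgeR called 1 of them, *Ccr7*, which T cells also express, lower in KO, from 170 ± 23.0 to 90.9 ± 12.7 CPM, while DESeq2 called 3 of the 12 lower and 1 higher. *Itgax*, which activated T cells also express, was at 50.7 ± 7.59 CPM in WT and 49.8 ± 22.7 CPM in KO, and *Batf3* was at 1.65 ± 0.736 CPM in WT and 5.50 ± 2.57 CPM in KO (adjusted p = 0.0329 in edgeR's quasi-likelihood test). *Flt3* had 10 counts over all samples, *Clec9a* 48, *Xcr1* 71 and *Cd207* 0, while *Zbtb46* was at 12.8 ± 0.930 CPM in WT and 6.01 ± 2.42 CPM in KO (adjusted p = 0.0203 in edgeR's quasi-likelihood test). The summed dendritic cell list lay at 218 to 273 CPM in WT and 126 to 195 CPM in KO, where it was above the summed macrophage list in each sample. Most of this sum came from *Ccr7* and *Itgax*, so it does not show more dendritic cell than macrophage RNA. Among 10 B cell markers 4 were tested. Of these edgeR called *Ighm* lower (61.7 ± 14.4 CPM in WT and 21.5 ± 13.6 CPM in KO) and *Cd22* higher (3.35 ± 2.11 CPM in WT and 26.2 ± 13.6 CPM in KO). Not called were *Cd79a*, at 0.303 ± 0.382 CPM in WT and 2.07 ± 1.20 CPM in KO, and *Cd79b*, at 1.81 ± 0.532 and 1.28 ± 1.17 CPM. The defining marker *Ms4a1* had 2 counts over all samples. The B cell list summed to 53.4 to 86.1 CPM in WT and 31.0 to 88.5 CPM in KO. Of 4 CD4+ T cell markers 2, *Zbtb7b* and *Cd40lg*, were called higher in KO, and this list summed to 40.1 to 57.0 CPM in WT and 121 to 155 CPM in KO. The CD8+ T cell list had 1 of 10 markers called, *Cd44*, which was higher in KO. For the carcinoma itself, 1 of 7 markers was tested and not called, *Epcam* had 55 counts over all samples and *Krt8* and *Krt19* had 0. The part of these cells in the class II result was not tested.

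The remaining genes of the class II pathway were taken from 6 lists by function. Of 41 such genes 39 were tested, 4 were called lower and 1 higher, against 1.99% called lower and 2.91% called higher of all genes, and their median log2 fold change was 0.13.

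**Figure D4:**
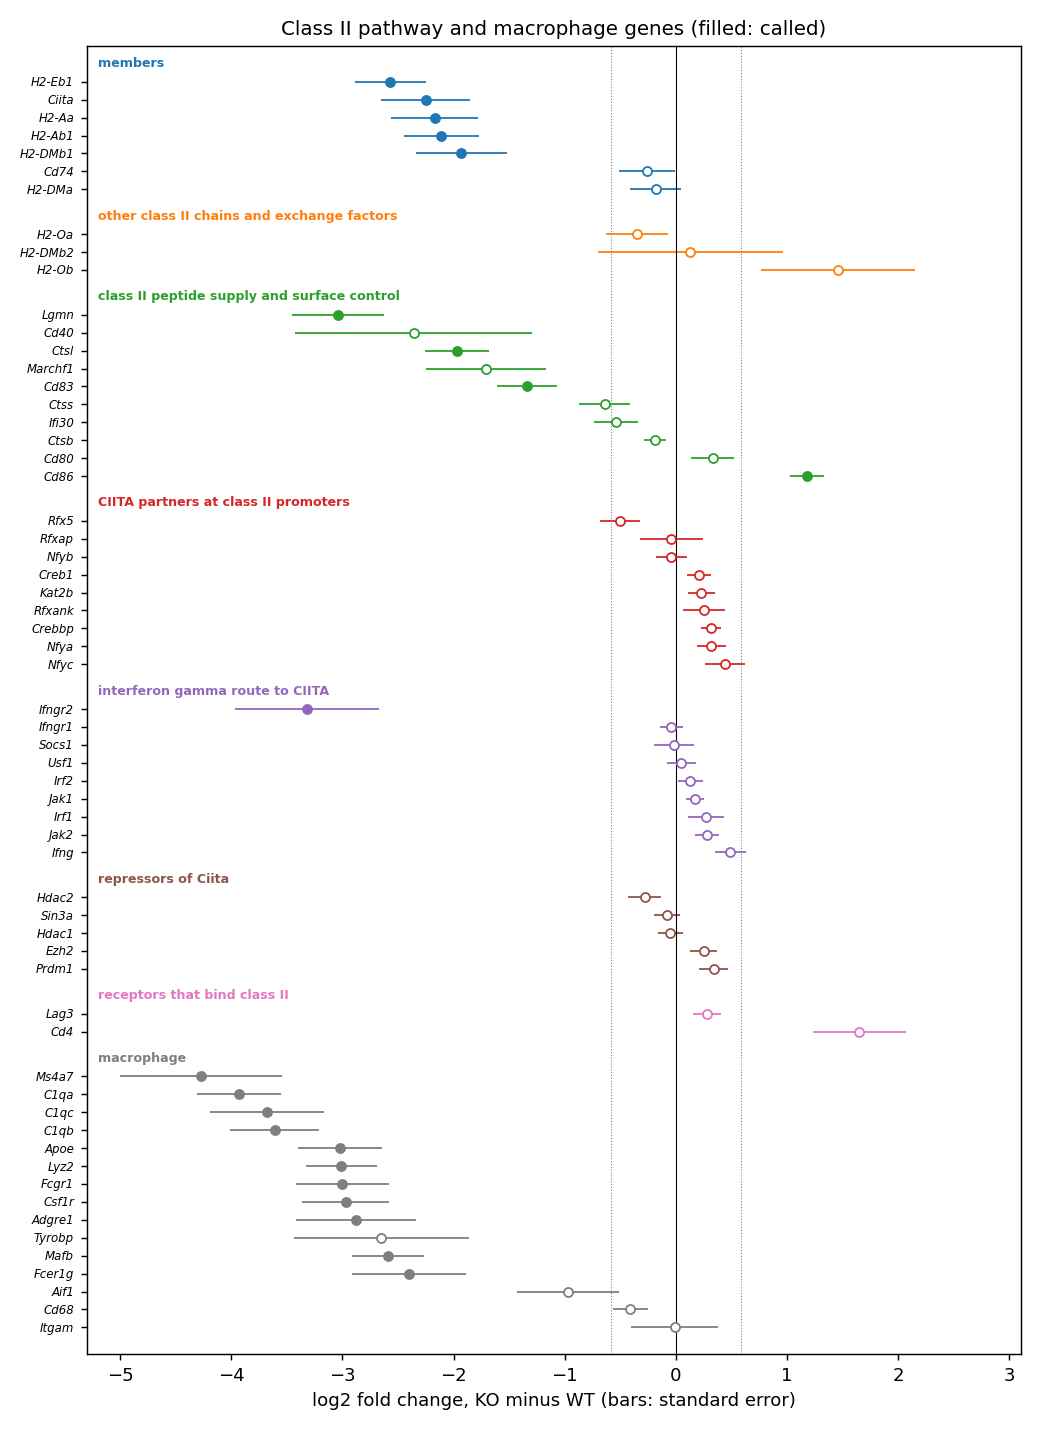
Log2 fold change (KO minus WT, horizontal axis) of the 7 genes, 38 of the 39 tested genes of the 6 pathway lists and the 15 tested macrophage markers, with bars for the SE, filled points for called genes and dotted lines at a fold change of 1.5. The called class II genes lie between -2.57 and -1.93, apart from *Cd74* and *H2-DMa* and from most genes of the regulatory lists, which lie near 0.

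Of the other class II chains and exchange factors, 3 of 5 were tested and none was called by edgeR or by DESeq2, while 1 had an unadjusted p under 0.05. *H2-Oa* and *H2-Ob* encode H2-DO, an inhibitor of H2-DM. *H2-Oa* was at 9.10 ± 1.92 CPM in WT and 7.13 ± 1.47 CPM in KO, and *H2-Ob* was at 1.54 ± 1.70 CPM in WT and 4.18 ± 2.36 CPM in KO, with a log2 fold change of 1.46 ± 0.69 at an adjusted p of 0.202 in edgeR's quasi-likelihood test. The nonclassical beta chain gene *H2-Eb2* had 9 counts in all.

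Among 10 genes of peptide supply and surface control, 3 were lower in KO and 1 was higher. The lower ones were *Lgmn*, a lysosomal protease that cuts the invariant chain and antigens, *Ctsl*, a cathepsin, and *Cd83*, which keeps class II molecules on the cell surface. *Lgmn* fell from 28.1 ± 21.2 to 3.41 ± 0.797 CPM (log2 fold change -3.04 ± 0.41, adjusted p = 9.57e-05 in edgeR's quasi-likelihood test). *Ctsl* fell from 16.7 ± 2.32 to 4.17 ± 1.73 CPM (log2 fold change -1.97 ± 0.29, adjusted p = 0.000202 in the same edgeR test). *Cd83* fell from 23.8 ± 6.10 to 9.33 ± 3.65 CPM (log2 fold change -1.34 ± 0.27, adjusted p = 0.00377 in the same edgeR test), a call that was lost without S2, S4 or S7 at adjusted p of 0.0118, 0.0214 and 0.0157. The gene that rose was *Cd86*, a costimulatory ligand, from 24.2 ± 2.87 to 55.1 ± 8.41 CPM (log2 fold change 1.18 ± 0.15, adjusted p = 6.02e-05 in the same edgeR test). *Ctss*, the main protease of the invariant chain in dendritic and B cells, had a log2 fold change of -0.64 at an adjusted p of 0.0927, and *Marchf1*, a ligase that removes class II molecules from the surface, had -1.71 at 0.0493 in the same edgeR test.

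CIITA acts through partners on the promoter, and none of the 9 measured here was called in either direction by edgeR or by DESeq2, while at an unadjusted p under 0.05 there were 3 higher and 1 lower. Their median log2 fold change was 0.23. *Rfx5*, a subunit of the RFX factor that binds the X box, was at 36.0 ± 1.96 CPM in WT and 25.5 ± 6.59 CPM in KO, with no overlap between the groups, at a log2 fold change of -0.50 ± 0.18 and an adjusted p of 0.0825 in edgeR's quasi-likelihood test. *Crebbp*, a histone acetyltransferase, was the partner with the lowest p, at 256 ± 24.8 CPM in WT and 319 ± 14.8 CPM in KO (log2 fold change 0.32 ± 0.09, adjusted p = 0.0396 in the same edgeR test). All KO samples were above all WT samples for 3 partners, *Crebbp*, *Nfyc* and *Kat2b*. The same held for the sum of the list, which was 576 to 639 CPM in WT and 658 to 751 CPM in KO. The share of all tested genes with this pattern is not given here, so whether 3 of 9 is unusual cannot be read from it. The other RFX subunits, *Rfxap* and *Rfxank*, differed by -0.04 and 0.25 on the log2 scale, and the NF-Y subunits *Nfya*, *Nfyb* and *Nfyc* by 0.32, -0.04 and 0.44. By the fold and p thresholds above, these were not called at this depth, which does not show that they were equal.

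On the route from interferon gamma to *Ciita*, 1 of 10 genes was called by edgeR, and the summed list was 1979 to 2099 CPM in WT and 2124 to 2577 CPM in KO. *Ifngr2*, a chain of the interferon gamma receptor, was at 6.83 ± 5.45 CPM in WT and 0.659 ± 0.458 CPM in KO. Its log2 fold change was -3.32 ± 0.65 at an adjusted p of 0.00269 in edgeR's quasi-likelihood test, which rose to 0.0302 without S3 and 0.0103 without S7. The KO samples S5 and S7 held 3 and 4 counts of *Ifngr2*, at or near the floor of 3 counts, so the size of this fall is uncertain. The other receptor chain, *Ifngr1*, was at 375 ± 39.0 CPM in WT and 365 ± 35.7 CPM in KO. *Ifng* itself was at 330 ± 83.1 CPM in WT and 462 ± 54.4 CPM in KO, with a log2 fold change of 0.49 ± 0.14 at an adjusted p of 0.0331. *Irf1*, a factor that carries the signal to *Ciita*, had a log2 fold change of 0.27 ± 0.16 at an adjusted p of 0.320 in the same edgeR test. None of the 5 genes listed as repressors of *Ciita* was called by either tool (2 had an unadjusted p under 0.05), with *Prdm1*, which encodes Blimp-1, at 119 ± 19.3 CPM in WT and 151 ± 21.8 CPM in KO. Of the receptors that bind class II molecules, *Lag3* was at 246 ± 28.3 and 299 ± 56.2 CPM, and *Cd4* was at 4.54 ± 2.07 CPM in WT and 14.3 ± 8.66 CPM in KO, at an adjusted p of 0.0161 by edgeR. Neither receptor gene was called by edgeR, both had an unadjusted p under 0.05, and DESeq2 called 1 of them higher.

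Genes whose level over the 8 samples was most like that of the class II genes were ranked by the root mean square difference of their log2 CPM, each centered on its own mean, among tested genes with a mean log2 CPM above 0. For the profile averaged over *H2-Aa*, *H2-Ab1*, *H2-Eb1* and *Cd74*, the nearest were *Zcchc24* at 0.24, *Tlr9* at 0.28, *Tcf7l2* at 0.29, *Clec12a* at 0.32 and *Hexa* at 0.34, followed by *Ifi207*, *Ralb*, *Lima1*, *Mvb12b* and, at 0.40, *Sbf2*. For the profile without *Cd74*, a ranking added after the values were seen, the nearest were *Cybb* at 0.25, *Tlr9* at 0.26, *Fcer1g* at 0.28, *Plxnb2* at 0.33 and *Cxcl9* at 0.36. *Rassf4*, *Ly86*, *Lrrc25*, *Csf2rb* and, at 0.40, *Cttnbp2nl* followed. Because these profiles fall from WT to KO, genes chosen for nearness to them fall as well, which is no separate result. *Tlr9* is a DNA sensor, *Clec12a* a lectin receptor and *Hexa* a lysosomal enzyme. Which cells the RNA of the genes in these rankings came from was not tested. For *Ciita*, the nearest gene was *H2-DMb1* at 0.29, before *Rassf4* at 0.31, *Pid1* at 0.36, *H2-Ab1* at 0.38 and *Tgm2* at 0.39. *Abca1*, *Anpep*, *Plxnb2*, *Cybb* and *Cyp4f18* followed between 0.42 and 0.43. Among the 7 genes, *H2-Eb1* at 0.44 and *H2-Aa* at 0.51 came soon after, while *H2-DMa* at 1.02 and *Cd74* at 1.03 were far from *Ciita*. *Cybb*, a subunit of the phagocyte oxidase, was at 41.2 CPM in WT and 8.84 CPM in KO.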

How the data were processed

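The authors aligned the paired reads of rRNA-depleted, directional libraries with STAR to GRCm38/mm10 and counted them per gene with featureCounts, as named in the methods and the submitters' processing notes, and deposited raw counts, without normalization or pooling of samples. Whether the counting used strand is not given in the sources used here. Columns were taken as WT or KO from the sample names on the PCA plot of the study and could not be tied to replicate numbers. Lanes, dates and other batches are not given in the labels.

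Counts of 55335 genes, 55154 of them matched to GENCODE M21, were filtered with filterByExpr, scaled with TMM factors (0.940 to 1.046) and compared with the quasi-likelihood test of edgeR 4.0.16 in R 4.3.3, with Benjamini-Hochberg adjustment over 15378 genes and the thresholds of the study (fold change above 1.5, adjusted p under 0.01). The study itself used DESeq2 with a GC content correction. An SE is the log2 fold change without its sign, divided by the root of the F statistic, and 95% intervals are 1.96 SE to each side. Ratios between 2 genes within a sample, printed as counts per count, were formed after adding a prior count of 2, scaled to the library, to each gene. Their log2 values were compared by exact two-sided permutation tests over 70 arrangements of samples. RPKM used the merged exon length of GENCODE M21. P-values measure the spread between samples of separate mice, pooled in WT.

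The 7 genes, the pathway and marker lists and the tests were chosen with earlier results of these data known. Named genes are the 7, called genes of the lists, defining markers and the 10 genes nearest to each profile. *Rfx5*, *Ifng*, *H2-Ob*, *Ctss*, *Marchf1*, *Prdm1*, *Lag3*, *Cd4*, other members of the lists and genes that share exons or sequence were added after their values were seen. Alternatives were other scaling, filters, DESeq2 1.42.0, GC content offsets (mgcv 1.9.3), a threshold of 0.05, a macrophage score covariate and leaving out each sample. The *Cd74* promoter and protein sequences are not used here, and some genes of the lists are not reported here.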

Additional observations from a re-analysis of the deposited data

How the results depend on the processing

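With other scaling, filters on low counts, DESeq2, GC content offsets or a threshold of 0.05, the 7 class II genes had 5 calls lower and 0 higher, as reported. Leaving out each sample gave 4 to 5 calls lower, the lower number without S3, S4, S5, S6 or S8, when *H2-DMb1* was not called. With the macrophage score as a covariate there were 0 calls lower, and signs turned for *H2-Aa* (1.09), *H2-Ab1* (0.78), *H2-Eb1* (0.10), *H2-DMa* (0.85), *Cd74* (1.80) and *Lgmn* (0.18). None of these turned values was called, at adjusted p from 0.119 for *Cd74* to 0.973 for *H2-Eb1* in edgeR's quasi-likelihood test. Without 1 sample, *H2-DMa* ranged from -0.30 to 0.03 and *Cd74* from -0.46 to 0.10, both positive without S3. In the other pathway genes, the 4 calls lower became 0 with the covariate and 2 to 4 without 1 sample (2 without S7), and the 1 call higher became 2 without a filter, with DESeq2 and at a threshold of 0.05, 0 with the covariate and 1 to 2 without 1 sample. Over all genes, the 447 calls higher became 25 with the covariate, 695 at a threshold of 0.05 and 347 to 452 without 1 sample. The 306 calls lower became 531 without a filter, 504 with DESeq2, 1 with the covariate, 551 at a threshold of 0.05 and 199 to 303 without 1 sample (199 without S2). The covariate and the genotype cannot be told apart, and the cause of the other shifts was not tested. The 9 ratios kept their side of the threshold with a prior count of 0.5, and stayed within 1 SD without any 1 sample. No paired analysis was possible because the columns carry no replicate numbers. *Ciita* and *H2-DMb1* had 26 to 43 counts in each KO sample.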
